A study of Rattus rattus with 12 samples.

Results

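Of 46726 rat transcripts quantified in perigonadal fat, 78 met a rule for low levels 3 and 14 days after ice slurry injection, set against untreated control fat. They were selected on the deposited levels themselves, given as TPM (the transcript's share of the library per 1000000, a level scaled for transcript length and sequencing depth). A transcript needed more than 3 estimated reads in all 12 libraries, a highest group mean of at least 5 TPM and a place outside the 100 transcripts with the highest control mean, which left 14560 transcripts. R was the group mean of TPM + 1 divided by that of the control. Members had R of at most 0.5 at day 3 and at day 14, and all 6 of these libraries below all 3 control libraries. The low levels at day 3 and day 14 are therefore a description of how the members were chosen and not a finding. The order of day 3 and day 14 and the transcript length were not set by the rule. Day 1 libraries entered it through the filter on reads and the highest group mean. The spread between libraries was set in part, because overlapping groups were left out.

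RNA-sequencing was performed on 4 groups of 3 libraries, namely untreated control fat and slurry treated fat collected 1, 3 or 14 days later. The animals were adult male Sprague-Dawley rats, bought at 200 g with their age given as 8 weeks. A high fat diet with 60 kcal% fat began 9 weeks ahead of treatment and was kept up until tissue was collected, control included. Treatment was by open surgery and unilateral, with 10 ml of a saline, glycerol and ice mixture delivered into the fat pad, and the methods name the untreated side as the control. None of the 12 libraries came from a sham-operated or warm-injected group, so surgery, injection and cold cannot be told apart. The labels do not say which control library came from which rat, and they give the organism as Rattus rattus although Sprague-Dawley is a strain of Rattus norvegicus. Library 2 of day 1 and library 3 of day 14 stood apart from the others of their groups in these transcripts, and the main counts and medians that use them are given with and without them. The total estimated count was 22715819, 26559350 and 25874329 in control libraries 1 to 3, 25598337, 23009910 and 20466915 at day 1, 26216660, 22395408 and 28802360 at day 3, and 21057277, 25826040 and 26729799 at day 14.

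White fat is made up of adipocytes, which store triglyceride in a single large droplet and release fatty acids and hormones, together with blood vessels, fibroblasts, mesothelium and immune cells. Cold injury kills adipocytes selectively because their lipid crystallizes above the freezing point of water, a process called cryolipolysis, and is followed by inflammation and repair. In RNA from whole tissue, fewer cells of a type and less RNA per cell cannot be told apart. Transcripts carried Ensembl identifiers without gene symbols. The gene table at hand covers 32100 genes of Rattus rattus (assembly Rrattus_CSIRO_v1) and held 0 of the 46726 identifiers. No member was therefore given a gene name, a genomic position or a sequence, the fat was not checked against adipocyte markers, and members are described by their level and order.

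In untreated fat the 78 transcripts covered a wide range, from 5.97 to 786 TPM, with a median control mean of 58.0 TPM against 14.6 TPM over the 14560 transcripts. At least 100 TPM was reached by 26 members, compared with 1217 of the 14560. The rule bears on this level, since a member had to be at most 0.5 of its control and still keep its reads in every library. Summed, the members made up 1.21%, 0.727% and 0.908% of all TPM in control libraries 1 to 3. At day 1 they made up 0.228%, 0.691% and 0.330%, at day 3 they made up 0.236%, 0.188% and 0.216%, and at day 14 they made up 0.197%, 0.270% and 0.447%. The 3 day 3 libraries were close to each other, whereas library 2 of day 1 and library 3 of day 14 were the highest of their groups. The 5 members most abundant in the control carried 34.1% of the summed level there, 24.8% at day 1, 20.2% at day 3 and 34.3% at day 14.

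A median over members, which no single abundant transcript can set, gave the same order of libraries within the treated groups. Relative to its own control mean, with 1 added to each TPM as in R and in all percentages of control given here, the median member stood at 115%, 80.8% and 99.6% in control libraries 1 to 3. It stood at 26.0%, 75.4% and 33.3% in the day 1 libraries, at 30.1%, 23.8% and 27.8% in the day 3 libraries, and at 22.8%, 30.7% and 46.1% in the day 14 libraries. Day 1 was thus divided, with libraries 1 and 3 near the day 3 libraries and library 2 near control library 2. From group means, the median member was at 46.9% of control at day 1, 28.1% at day 3 and 34.0% at day 14. Without library 2 it was at 29.7% at day 1. Without library 3 it was at 26.5% at day 14, below the 28.1% at day 3. The median over members of their own ratio of day 14 to day 3 was then 1.05, so the order depended on the measure. Over the 14560 transcripts the medians with all libraries were 114% at day 1, 119% at day 3 and 106% at day 14. After scaling each library by its median ratio to the others, the medians over all these transcripts were 102%, 101% and 94.9%, and those over the members were 42.0%, 23.7% and 30.8%.

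**Figure D1:**
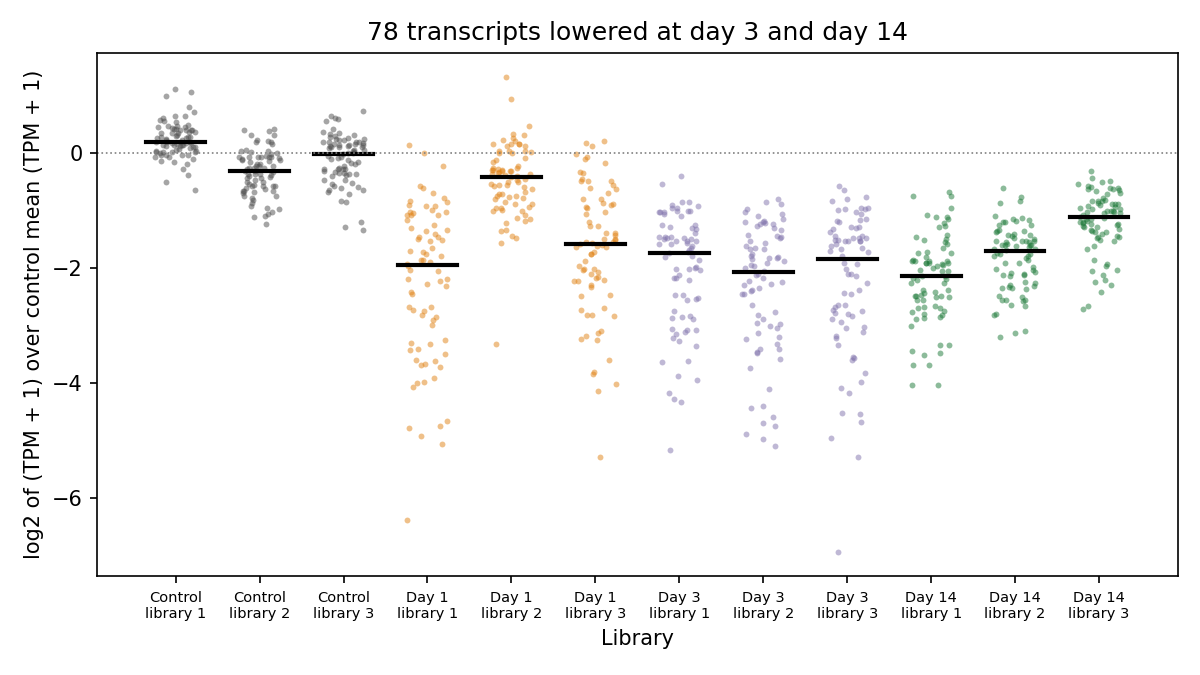
Each point is 1 of the 78 transcripts in 1 library, on the y axis as log2 of TPM + 1 over its control mean of TPM + 1, and black bars are medians over the transcripts. Library 2 of day 1 has a median of -0.41, close to control library 2 at -0.31, while libraries 1 and 3 of day 1 have medians of -1.95 and -1.59.

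The share of all TPM held by the 100 transcripts most abundant in the control, none of which could be a member, also differed between libraries. This share was 40.2%, 38.4% and 34.8% in the control, 30.9%, 35.8% and 29.0% at day 1, 29.7%, 31.4% and 27.7% at day 3, and 30.8%, 34.8% and 38.6% at day 14. Library 2 of day 1 and library 3 of day 14 had the highest share of their groups, as they had for the members. The part of this difference in library composition in the levels of the members was not tested. Of those 100 transcripts, 6 met the other criteria of the rule.

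The member with the highest control level was ENSRNOT00000001325.6, a transcript of 601 bases that ranked 158 among all transcripts in the control. It had 972, 528 and 857 TPM in the control libraries, 30.2, 282 and 54.9 TPM at day 1, 63.0, 22.1 and 19.2 TPM at day 3, and 132, 262 and 495 TPM at day 14. All day 3 libraries were below all day 14 libraries, and library 3 of day 14 came close to the lowest control library. The group means were 786 ± 230 TPM (SD, n = 3) in the control, 122 ± 139 at day 1, 34.8 ± 24.5 at day 3 and 296 ± 184 at day 14. On the scale of TPM + 1, R was 0.157, 0.0455 and 0.378. Each of these values rested in part on 1 library. R was 0.0554 at day 1 without library 2, 0.0275 at day 3 without library 1 and 0.252 at day 14 without library 3.

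ENSRNOT00000024917.5, a transcript of 1933 bases, had the lowest geometric mean of R at day 3 and day 14. Its levels were 892, 375 and 360 TPM in the control libraries, 15.2, 244 and 32.6 TPM at day 1, 14.1, 17.3 and 3.39 TPM at day 3, and 32.2, 108 and 266 TPM at day 14. Control library 1 was more than double the other control libraries, and the day 14 libraries spread over a wider range than those of day 3. Its group means were 542 ± 303 TPM (SD, n = 3) in the control, 97.3 ± 127 at day 1, 11.6 ± 7.30 at day 3 and 135 ± 119 at day 14. On the scale of TPM + 1, which R uses, day 3 was 43.1-fold and day 14 was 3.98-fold below the control. R at day 1 was 0.181 with library 2 and 0.0459 without it. R at day 14 was 0.251 with library 3 and 0.131 without it.

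**Figure D2:**
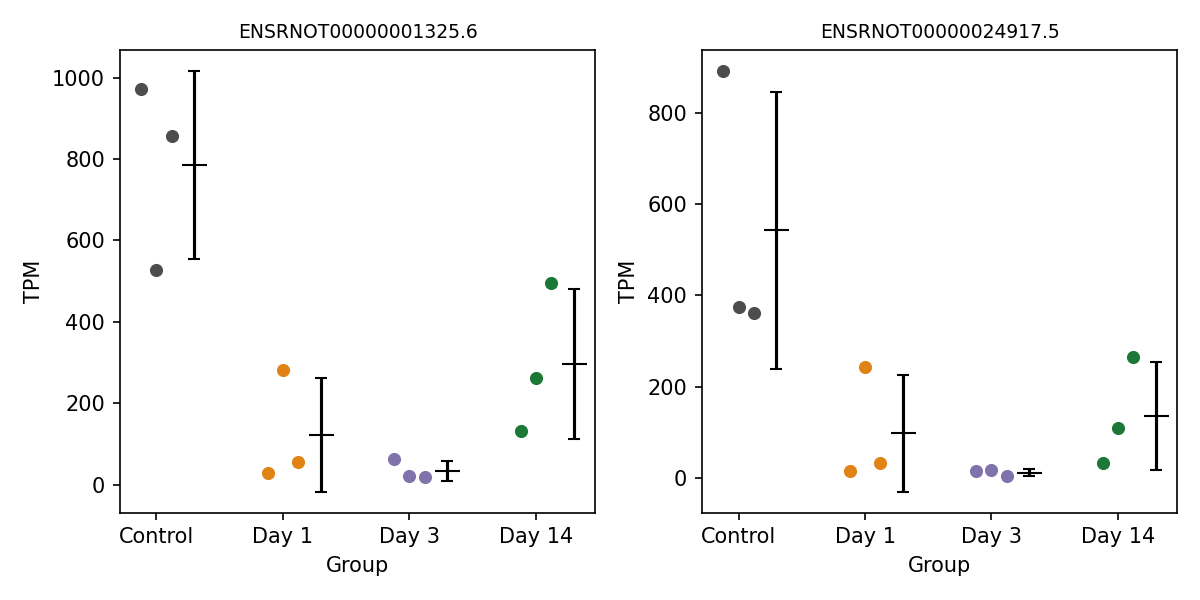
Level in TPM of the most abundant member (left) and of the member with the lowest joint R (right), with 1 point per library in the order 1 to 3 and the mean ± SD of the 3 libraries beside it (error bars are SD and may reach below 0). In both transcripts, library 2 of day 1 (282 and 244 TPM) stands above libraries 1 and 3, and all day 14 libraries stand above all day 3 libraries.

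The other abundant members did not all follow these transcripts. The second in control level had 946, 434 and 811 TPM in the control, 54.2, 377 and 85.1 TPM at day 1, 158, 97.6 and 109 TPM at day 3, and 112, 144 and 318 TPM at day 14. Its day 3 and day 14 libraries overlapped, and its day 14 mean was 1.57 times its day 3 mean. The third had 829, 630 and 494 TPM in the control and 345, 714 and 269 TPM at day 1. Its levels were 186, 181 and 226 TPM at day 3 and 177, 214 and 425 TPM at day 14, so that library 2 of day 1 lay within the control range and the later days overlapped. The sixth had 544, 355 and 545 TPM in the control and 227, 557 and 458 TPM at day 1, and between 179 and 231 TPM in each of the 6 later libraries. At day 1 it was at 86.0% of control, with libraries 2 and 3 above the lowest control library.

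The rule did not ask whether members were already low at day 1, but it did use the control libraries, so a comparison with them is a description. R at day 1 was at most 0.5 for 44 of the 78 members, and the same held for 2.14% of the 14560 transcripts. All 3 day 1 libraries were below all control libraries for 35 members, where the background was 3.65%. Both numbers stood above the background, and the same control libraries had chosen the members. Library 2 was the highest of the day 1 libraries in 71 members, and in 3805 of the 14560 transcripts. Without it R at day 1 was at most 0.5 for 58 members, against 5.41% of the 14560 transcripts. The day 1 libraries were then below all control libraries for 65 members, against 14.1%, and the median R over members was 0.297, compared with 0.469 with it and 0.754 in library 2 alone. Library 1 was the lowest of day 1 in 59 members and in 5445 of the 14560.

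By their day 1 libraries the members were sorted into 3 sets, chosen after the values were seen. In the 35 members with all day 1 libraries below the control range, the median level was 38.0% of control at day 1, 26.6% at day 3 and 34.2% at day 14. In 30 members library 2 alone reached the control range, and their medians were 51.7%, 23.6% and 34.2%. In the remaining 13 members library 1 or library 3 reached it, with or without library 2, and their medians were 83.4%, 43.1% and 32.9%. Without library 2, the day 1 medians of the 3 sets were 27.3%, 23.0% and 64.0%. Without library 3 of day 14, their day 14 medians were 25.2%, 29.3% and 25.7%, so that the order of the day 3 and day 14 medians turned in the first set.

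Among these 13 was the member that ranked 28 in control level. It had 179, 50.5 and 38.5 TPM in the control, 51.7, 65.5 and 43.5 TPM at day 1, 4.88, 2.49 and 2.94 TPM at day 3, and 7.94, 30.2 and 12.7 TPM at day 14. All its day 1 libraries lay within the control range and all its later libraries below it, although its control mean rested on library 1. The member that ranked 45 had the highest R at day 1. Its levels were 58.6, 67.1 and 28.2 TPM in the control, 20.3, 131 and 29.1 TPM at day 1, 25.1, 13.3 and 17.7 TPM at day 3, and 10.9, 7.80 and 7.28 TPM at day 14. Its day 1 mean of 117% of control came from library 2. In 5 members, and in 260 of the 14560 transcripts, all day 1 libraries were above all day 3 and day 14 libraries. Without library 1 of day 1 this held for 23 members and 484 transcripts, and without library 3 of day 14 for 8 and 343.

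The rule did not set the order of day 3 and day 14. It did keep the control from being the lowest group of a member, although the control could be lowest among the 14560 transcripts. It also chose both later days low, so a low count of members lowest at day 1 is not a finding. The lowest group mean was at day 3 in 54 members and at day 14 in 24, and in 0 members at day 1, compared with 2507, 4424 and 1683 of the 14560 transcripts. Without library 3 of day 14 it was at day 3 in 41 members and at day 14 in 37, against 2366 and 4215 of the 14560. Without library 2 of day 1 it was at day 1 in 20 members and 2662 of the 14560. It was then at day 3 in 37 members and at day 14 in 21, against 1827 and 4327, so this order rested on single libraries. The median ratio of day 14 to day 3 was 1.25 over the members and 0.926 over the 14560 transcripts. It was 1.05 over the members without library 3 of day 14, which was the highest day 14 library in 61 members and in 3773 of the 14560 transcripts. The ratio was at least 2 in 21 members and at most 0.5 in 2 members, compared with 820 and 966 of the 14560. Without library 3 of day 14 it was at least 2 in 16 members and at most 0.5 in 4, against 800 and 902 of the 14560. The 2 members with a ratio of at most 0.5 became 0 without library 1 of day 3, and 1 without library 3 of day 3 or library 1 of day 14. Of the 14560, 971, 869 and 1334 had such a ratio in these 3 cases.

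All day 14 libraries lay above all day 3 libraries in 18 members (23.1%), against 13.4% of the 14560 transcripts. All lay below them in 4 members (5.13%), against 26.9% of all these transcripts. With a library left out both counts can only stay or rise, for the members and for all transcripts alike. The first was 28 without library 1 of day 3, against 17% of the 14560 transcripts, and 29 without library 1 of day 14, against 17.2%. Without library 3 of day 14 it was 18 (23.1%), close to the 20.9% of the 14560. The second was 11 without that library, against 30.3% of the 14560, and 8 without library 2 of day 3, against 33.3%. Whether the members differ from other transcripts was not tested. The 18 members that were higher at day 14 had a median of 10.0% of control at day 3 and 35.9% at day 14, and their ratio of day 14 to day 3 ran from 1.53 to 10.8. Without library 3 their median at day 14 was 25.9%. Their median at day 1 was 35.7% of control, and 17.3% without library 2. The 4 members that were lower at day 14 had medians of 75.8% at day 1, 39.3% at day 3 and 21.8% at day 14, and the first was 49.3% without library 2 of day 1. In the 56 members whose day 3 and day 14 libraries overlapped, the medians were 48.4%, 32.7% and 34.3%. Without library 3 of day 14 the last was 27.5%, below that of day 3.

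Among the 18, the member that ranked 39 in control level had library 3 of day 14 just under its control range. It had 80.1, 49.6 and 48.9 TPM in the control, 0.989, 48.5 and 5.31 TPM at day 1, 2.35, 2.52 and 3.27 TPM at day 3, and 8.62, 21.5 and 48.0 TPM at day 14. Its day 14 libraries spread from 8.62 TPM, above the highest day 3 library at 3.27 TPM, to just under the lowest control library. Of the 4 members that were lower at day 14, the most abundant ranked 10. It had 310, 177 and 321 TPM in the control, 135, 138 and 91.7 TPM at day 1, 112, 75.0 and 136 TPM at day 3, and 41.2, 60.9 and 65.0 TPM at day 14. Its day 1 and day 3 libraries overlapped, and all its day 14 libraries lay below both.

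**Figure D3:**
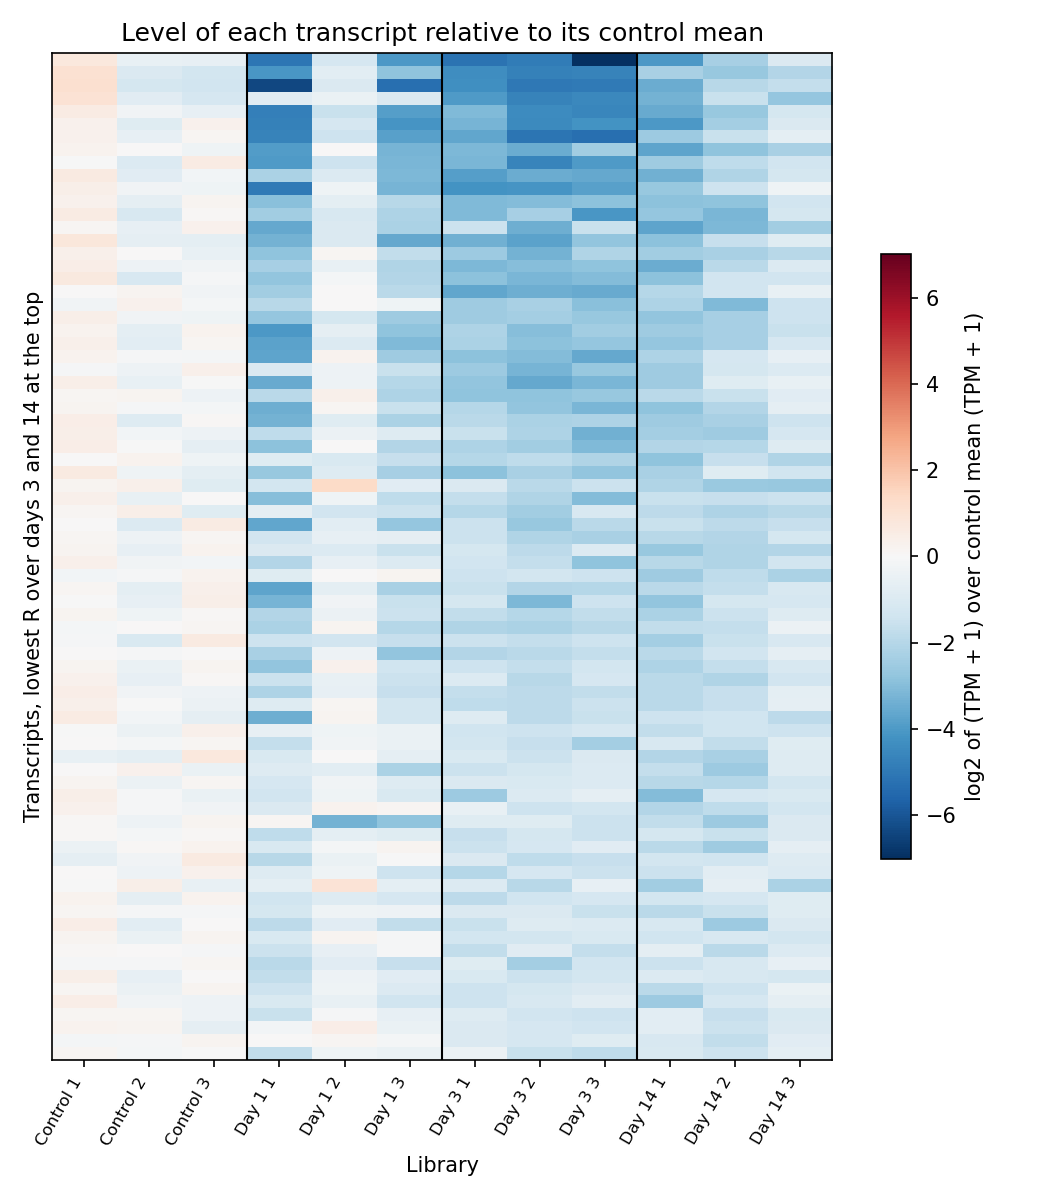
Each row is 1 of the 78 transcripts, ordered by the geometric mean of R at day 3 and day 14, and each column is 1 library; colour gives log2 of TPM + 1 over the control mean of TPM + 1. Day 1 library 2 is the highest of its group in 71 of the rows, and in 18 rows all day 14 libraries are above all day 3 libraries.

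Estimated counts of all transcripts were tested in 1 fit of the 12 libraries with edgeR's quasi-likelihood test, and p-values were adjusted over the 28016 transcripts tested by the Benjamini-Hochberg method. A call was an adjusted p under 0.05 with more than 2-fold change. All 78 members passed the filter on low counts. At day 14 against control, 6 members were called lower, where 0.3% of all transcripts tested were. At day 3 against control, 0 members were called, where 0.00357% of all transcripts were called lower, and 73 members had an unadjusted p under 0.05, as had 16.7% of all transcripts. At day 1 against control, 0 members were called, with 0% of all transcripts called lower, and 35 had an unadjusted p under 0.05, as had 7.77% of all transcripts. The 35 members became 62 without library 2 of day 1, against 14.4% of all transcripts, and 14 without control library 1, against 3.75%. Without library 1 or library 3 of day 1 they were 21 and 16, against 6.52% and 4.23%. The contrasts of day 3 and day 14 with control were used by the rule, and nothing is read from these numbers.

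The number of calls depended on the tool. With DESeq2, the tool of the study, 76 members received an adjusted p. It called 64 members lower at day 3 (3.31% of all transcripts tested), 43 at day 14 (2.37%) and 8 at day 1 (0.725%). These contrasts were likewise used by the rule, or share its control libraries. The median log2 fold change over members in edgeR was -1.28 at day 1, -2.18 at day 3 and -1.79 at day 14, beside 0.03, 0.03 and 0.02 over all transcripts tested.

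The 6 members called by edgeR at day 14 ranked 10, 24, 27, 29, 34 and 58 in control level, and the 9 most abundant members were not among them. This number ranged from 1 to 9 with 1 library left out, where 0.0377% to 0.356% of all transcripts were called lower. It was 2 with a replicate block (0.0892% of all transcripts) and 0 in an edgeR fit of the 2 compared groups alone, which called 0% of all transcripts lower. In that fit 71 members and 16.7% of all transcripts had an unadjusted p under 0.05. At day 3 such a fit called 54 members, in place of 0, and 2.38% of all transcripts lower. The member that ranked 29 had 83.6, 63.0 and 110 TPM in the control and 25.0, 31.5 and 30.6 TPM at day 14. Its day 1 libraries, with 57.7, 70.3 and 61.1 TPM, lay close to the lowest control library, and its day 3 libraries had 32.3, 30.5 and 37.2 TPM. Its day 3 and day 14 libraries overlapped. The member that ranked 34 had 63.9, 67.6 and 87.5 TPM in the control, 40.2, 73.6 and 84.5 TPM at day 1, 25.8, 29.8 and 26.3 TPM at day 3, and 12.1, 20.3 and 14.7 TPM at day 14. Its day 14 libraries all lay below its day 3 libraries, and libraries 2 and 3 of day 1 lay within the control range. R at day 14 of the 6 members was 0.210, 0.234, 0.313, 0.347, 0.226 and 0.305 in the order of rank.

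The rule did not set the direction of day 14 against day 3, although the libraries of both days chose the members. By edgeR 0 members were called, where 1.98% of all transcripts were called in either direction, and 15 members (19.2%) had an unadjusted p under 0.05, close to the 19% of all transcripts tested. With 1 day 3 or day 14 library left out, 0 members were called. The share of all transcripts called then ranged from 0.225% without library 3 of day 3 to 1.67% without library 1 of day 14. By DESeq2 10 members (13.2% of the 76 tested) were called higher at day 14 and 0 lower. Of all transcripts tested by DESeq2, 3.91% were called higher and 7.82% in either direction. The transcripts ENSRNOT00000001325.6 and ENSRNOT00000024917.5 were among the 10, with log2 fold changes of 3.22 ± 0.82 and 3.68 ± 1.01 (SE) and adjusted p of 0.00176 and 0.00454 from DESeq2. In edgeR the same transcripts had adjusted p of 0.101 and 0.146. ENSRNOT00000024917.5 was named for its low R at day 3 and day 14, the days compared here, so its p-values are a description. The smallest adjusted p of any member in edgeR was 0.0710, for the member that ranked 37. It had 4.23, 5.13 and 4.59 TPM at day 3 and 15.4, 24.8 and 45.4 TPM at day 14, and DESeq2 called it (adjusted p = 0.000854). In edgeR 2 members were called higher with at least 10 counts in every library (2.67% of the members tested), and 2 in a fit of the 2 groups alone (2.56%). Of all transcripts tested, 2.02% and 1.1% were called higher in these fits and 5.37% and 2.83% in either direction. Counts of 2 members are too few to set against these shares, and the difference was not tested. The calls thus depended on the tool and its settings. With 3 libraries in each group the smallest p of an exact permutation test is 0.1, and no such test was made.

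Members varied among the untreated libraries as well. The highest control library was a median of 1.83 times the lowest, compared with 1.44 over the 14560 transcripts, and at least double in 25 members and 3071 of the 14560. With 1 control library left out it was at least double in 12 to 15 members and 1353 to 2138 of the 14560. Leaving out a control library can only keep or lower this ratio. Control library 1 was the highest of the control in 44 members, library 3 in 25 and library 2 in 9, compared with 2991, 7433 and 4136 of the 14560. The lowest control library exceeded the highest day 3 or day 14 library by a median of 1.37-fold. This gap was under 1.1-fold in 8 members and at least 2-fold in 8, the only 8 of the 14560. The rule used the same libraries, so that such gaps lay almost only in members was set by the rule and is not a finding. The gap was at least 2-fold in 34 members of 49 transcripts without library 3 of day 14, in 32 of 36 without control library 2 and in 14 of 15 without control library 3. Leaving out a library can only keep or widen this gap. The library next to the control range was day 14 library 3 in 51 members.

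The members just inside the limits of the rule had R of 0.496 and 0.495 at day 3, and the transcripts just outside had 0.519 and 0.533. At day 14 the values just inside were 0.496 and 0.487, and those just outside were 0.501 and 0.502. A further 38 transcripts met both limits on R but had overlapping groups. Another 46 met every criterion but that on reads, since at least 1 library held 3 or fewer estimated reads, so transcripts that were almost lost in a library could not be members. At least 100 estimated reads were present in every library for 49 members and 11787 of the 14560, and 3 members and 181 of the 14560 had under 10 reads in at least 1 library. Salmon divides the reads of a gene among its transcripts, and a lower transcript does not show that its gene was lower.

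How far R lay below the limit differed among members. At day 3, R was at most 0.25 in 33 members and at most 0.1 in 11, compared with 174 and 36 of the 14560. At day 14, R was at most 0.25 in 17 members and 67 of the 14560, and the number of members ranged from 7 without control library 1, against 70 transcripts, to 33 without library 3 of day 14, against 89. It was 10 and 11 without library 1 and library 2 of day 14. The lowest R was 0.0232 at day 3 and 0.126 at day 14. The transcript length was not used by the rule. Members had a median length of 2260 bases, with quartiles of 1676 and 3810, and the 14560 transcripts had a median of 2426 with quartiles of 1590 and 3641. Across the 78 members, Spearman's rho of length with the ratio of day 14 to day 3 was -0.19, and with R at day 1 it was 0.02. These correlations are descriptions across transcripts of the same libraries.

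Another 455 transcripts had R of at most 0.5 at day 3 and above 0.5 at day 14, and they share all control and day 3 libraries with the members. Their median control mean was 28.2 TPM and their median length 2296 bases. In the day 1 libraries their medians were 26.1%, 95.0% and 38.2% of control, beside 26.0%, 75.4% and 33.3% for the members. Library 2 was the highest day 1 library in 422 of them. All day 1 libraries were below the control range in 91 of the 455 and in 35 of the 78, against 3.65% of the 14560. The 455 were chosen on R alone, whereas the 78 also had all day 3 and day 14 libraries below all control libraries. The 267 transcripts with R of at most 0.5 at day 14 alone had all day 1 libraries below the control range in 23 cases, and library 2 was the highest day 1 library in 44 of them. The difference between these sets was not tested, because the same libraries chose them.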

How the data were processed

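Perigonadal fat RNA was sequenced by the authors from poly(A)-selected, strand-marking libraries, with FastQC 0.11.3 for read quality per the labels. Transcripts were quantified by the authors with Salmon (version not given in the sources used here) against Ensembl transcripts of mRatBN7.2 per the methods, whereas the submitters' processing notes name rn6. The deposited expected counts are reads assigned to each transcript, not normalized. The deposited TPM values are scaled by Salmon for effective length and depth and sum to 1000000 per library. The members and lists were chosen with earlier results of these data known. Replicates are biologic per the methods, and the p-values measure the spread between 3 libraries per group.

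The rule was applied to TPM. Expected counts were rounded and tested in 1 fit of all 12 libraries by robust quasi-likelihood (glmQLFit and glmQLFTest of edgeR 4.0.16 under R 4.3.3), after filterByExpr and TMM, a script tested on simulated data. Its standard errors are the log2 fold change divided by the square root of F. On simulated counts with 200 transcripts changed 8-fold at day 14, the fit called 108 of them (54%) against control, with 4 false calls. A member that was not called may therefore still differ. DESeq2 1.42.0 was an alternative, beside other normalizations, filters, pseudocounts, a replicate block and leaving out each library. The background of DESeq2 at day 14 against day 3 is given in both ways because the direction was taken from the calls. The total count was between 20466915 and 28802360 per library. With no identifier paired to a gene, the 2 identifiers printed are the member highest in the control and that with the lowest geometric mean of R at day 3 and day 14. The planned gene lists and cell type markers were not used, and other members are given by rank in control level, those in the text being chosen after their values were seen.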

Additional observations from a re-analysis of the deposited data

How the results depend on the processing

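The number of members was 78, and 124 without the filter on reads, an alternative chosen after seeing the data. So were those for the counts of day 1 below control and day 14 above day 3, for members that passed with every library left out, for R of the 2 named transcripts, for R of at most 0.5 at day 1, for the median R at day 14, and for the counts by group order, ratio, gap, control spread and lower limits on R with 1 library left out. The number of members ranged from 76 to 190 with 1 library left out, the highest without day 14 replicate 3, and 46 members passed the rule with every library left out in turn. With median-ratio scaling 114 transcripts passed, 77 of them members. Members with day 1 below the control range numbered 35, and 35 to 65 with 1 library left out, the 65 without day 1 replicate 2. Members with R of at most 0.5 at day 1 numbered 44, and 31 to 58 with 1 library left out. The median R at day 14 was 0.340, and 0.265 to 0.387. Members with day 14 above day 3 numbered 18, and 18 to 29, with 28 without day 3 replicate 1 and 29 without day 14 replicate 1. The median R at day 1 was 0.469, and 0.297 without day 1 replicate 2. The median ratio of day 14 to day 3 was 1.25. Both medians and R of the 2 named transcripts moved by less than the SD between libraries in all alternatives run. For the named transcripts this was fixed in advance where a treated library was left out, since leaving out 1 of 3 cannot move their mean that far. It is therefore no sign that these values are stable.

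Members called by edgeR numbered 0 at day 1, 0 at day 3 and 6 at day 14 against control, and 0 at day 14 against day 3. DESeq2 called 8, 64, 43 and 10. With at least 10 counts in every library the calls were 0, 21, 17 and 2, where 0.444% of all transcripts were called lower at day 3 and 0.906% at day 14, and with the 2 compared groups alone 0, 54, 0 and 2. At day 14 in that fit 71 members had an unadjusted p under 0.05. Upper-quartile normalization gave 1 at day 3, where 0.00714% of all transcripts were called lower. With 1 library left out the calls were 0 to 1 at day 3, the 1 without control replicate 2 (0.0102% of all transcripts lower). They were 1 to 9 at day 14 (0.0377% to 0.356%). At day 14 they were 2 without control replicate 1, 3 without control replicate 2 or 3, 2 without day 14 replicate 1 and 1 without day 14 replicate 2. The cause was not tested. A replicate block gave 2 members at day 14 and changed no other of these numbers. Of 18 same-numbered pairs of libraries, 4 had deviations correlated above 0.1, and the median correlation was -0.039. Whether replicate numbers mark the same rat cannot be decided from this, because the labels do not name the animals. Depth limits the members with under 10 reads in a library, which were 3.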
